A study of Ovis aries with 12 samples.

Results

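The skeletal muscle transcriptome of Tan sheep fed a diet with 2% succinate (the SUC3 diet) was compared with that of sheep on the control diet, a basal feed with no succinate added. The comparison rests on 6 of the 12 RNA-seq libraries of the series, 3 per diet, and was chosen by diet alone. All libraries came from longissimus dorsi, a back muscle sold as loin. The 36 sheep were 5 months old and were split over 4 diets, 9 to each, with 10 days of adaptation before the 60 days on trial. The other diets held 0.5% succinate (SUC1) and 1% succinate (SUC2). Nothing in the labels says how 9 sheep became 3 libraries, whether a library is a pool, which sex the sheep were or when they were sampled. The p-values therefore measure the spread between these libraries, which may be technical in part.

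Succinate is an intermediate of the TCA cycle that succinate dehydrogenase oxidises inside the mitochondrion. Outside the cell it binds the receptor encoded by SUCNR1, and when it accumulates it inhibits the prolyl hydroxylases that mark the hypoxia factor HIF-1 for breakdown. Back muscle is a mix of slow oxidative and fast glycolytic fibres wrapped in connective tissue, vessels and fat, and the series asks how succinate in the diet bears on fibre characteristics and meat quality.

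Levels below are CPM, counts scaled to library size, with TMM factors that correct for a few very abundant genes. Total counts were 16678596 to 17233737 in the control and 17085701 to 17465992 in the SUC3 libraries (exact two-sided permutation p = 0.2; 0.1 is the smallest that 3 against 3 allows). The number of genes detected, the mitochondrial share and the share of the 20 most abundant genes gave exact permutation p of 0.4 to 0.8. In the check of the tissue label, all 15 skeletal muscle genes checked were tested and summed to 184100 to 280000 CPM per library. Of 12 genes of heart and other organs, 5 passed the filter on low counts and 6 had no count in any library. These 12 genes summed to 39.5 CPM in SUC3 replicate 3, of which ALB, the albumin of liver, made 20.2 CPM, against 5.73 to 13.3 CPM in the other libraries.

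Some libraries stood apart within their diet. Control replicate 1 was high in slow-fibre genes and in nuclear genes of the respiratory chain, SUC3 replicate 1 in endothelial and basement membrane genes, and SUC3 replicate 2 in adipocyte markers and in NR4A3, PPARGC1A and other genes described further down.

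Of 13319 genes tested, TTLL7 alone passed by edgeR's quasi-likelihood test at an adjusted p under 0.05, which is 0.00751% of the genes. Its adjusted p was 0.0412, and the next smallest was 0.0741. The count of 1 was 11 without control replicate 1, 9 without SUC3 replicate 3, 3 without SUC1 replicate 3 or without SUC2 replicate 2, and 0 without any of the libraries named below for TTLL7. A gene with an unadjusted edgeR p under 0.05 is called nominal below; 984 genes were nominally higher in SUC3 (7.39% of those tested) and 674 nominally lower (5.06%). DESeq2, another count test, called 241 genes at an adjusted p under 0.05, 154 higher (1.16%) and 87 lower (0.653%). All 3 SUC3 libraries lay above all 3 controls for 1219 genes (9.15%) and below them for 1183 genes (8.88%). The median log2 fold change over all genes was -0.01. In what follows an adjusted p is edgeR's over all genes tested unless DESeq2 is named, a call is named with the tool that made it, and values of other genes are given without a claim of change.

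**Figure D1:**
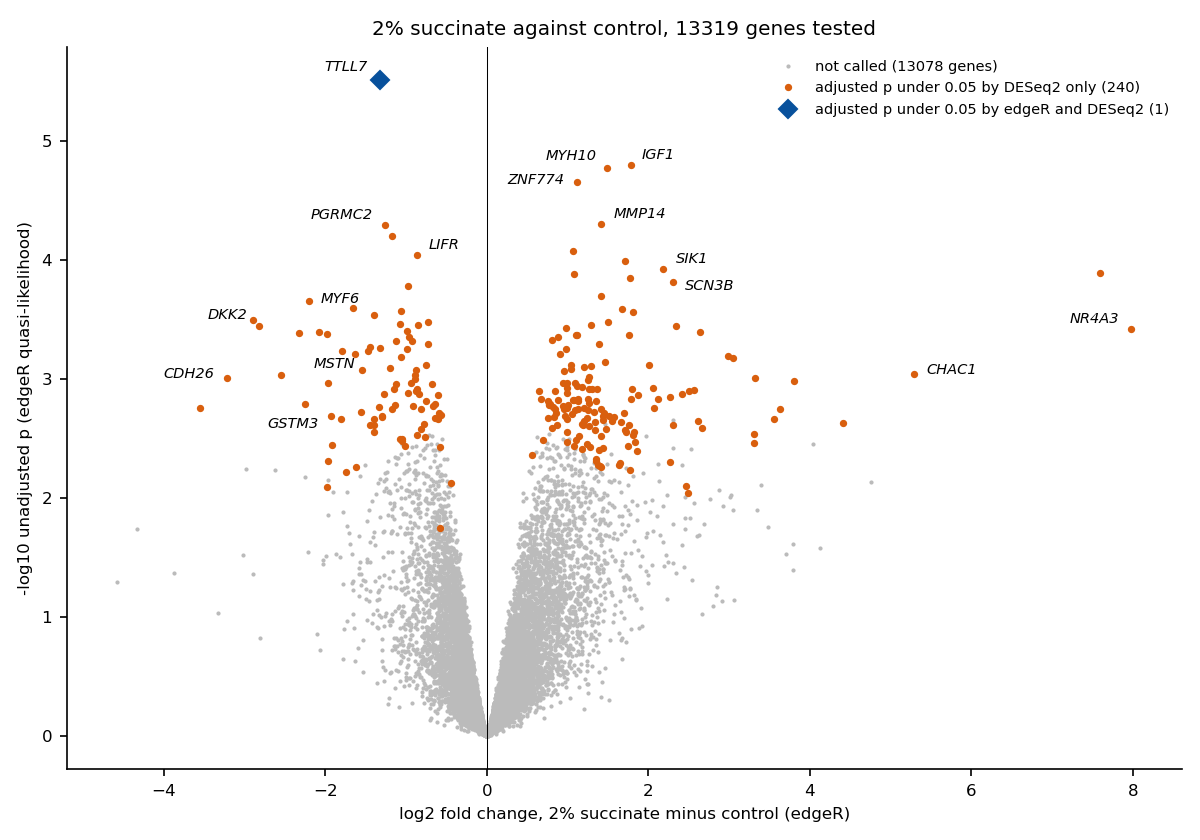
Each point is 1 of 13319 genes, with the log2 fold change of 2% succinate minus control on the x axis and -log10 of the unadjusted edgeR p on the y axis. TTLL7 is the single gene called by edgeR, and the 240 genes called by DESeq2 alone lie on both sides of 0, more of them on the side of higher values.

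TTLL7 encodes a polyglutamylase, an enzyme that adds glutamate side chains to beta-tubulin on microtubules. It was at 52.5, 55.1 and 53.4 CPM in control and 20.7, 20.6 and 22.9 CPM in SUC3. The groups were far apart and each was tight: the means were 53.7 ± 1.30 CPM in control and 21.4 ± 1.30 CPM in SUC3 (SD, n = 3), a 2.51-fold difference. TTLL7 fell, with a log2 fold change of -1.32 ± 0.17 (SE) (adjusted p = 0.0412; DESeq2 adjusted p = 1.82e-08). The call held in 11 of 24 alternative settings, and the log2 fold change lay between -1.38 and -1.02 in all of them. It was lost on leaving out SUC3 replicate 1 or 2, control replicate 2 or 3, or, among the other diets, SUC2 replicate 1 or 3 or SUC1 replicate 2. It was also lost with upper-quartile factors, with library totals, on both FPKM scales and in a fit of these 6 libraries alone. Adding the replicate number to the fit as a block ended the call too. The largest edgeR or limma adjusted p over the settings was 0.279. In the coordinates of the deposited table, whose build is not named there, TTLL7 lies on chromosome 1 from 60852279 to 61023672.

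Among other microtubule genes, VASH1, whose product removes the terminal tyrosine of alpha-tubulin, was at 4.69, 3.65 and 5.68 CPM in control and 17.1, 9.07 and 11.1 CPM in SUC3. DCLK1, a microtubule-associated kinase, was at 5.72, 3.87 and 4.30 CPM in control and 13.2, 7.23 and 9.70 CPM in SUC3. Both were higher in each SUC3 library than in any control, with log2 fold changes of 1.41 ± 0.28 and 1.12 ± 0.24 (adjusted p = 0.139 for each), and DESeq2 called both. Of 40 microtubule genes tested, 23 were higher and 17 lower, with a median log2 fold change of 0.10. Nominally there were 5 higher and 4 lower, 12.5% and 10.0% of the list against 7.39% and 5.06% of all genes.

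Growth signals were among the genes with the smallest p. IGF1 encodes insulin-like growth factor 1, which promotes muscle protein synthesis, and was at 7.45, 5.28 and 6.71 CPM in control and 16.2, 19.0 and 31.6 CPM in SUC3. Every SUC3 library was above every control, and SUC3 replicate 3 was highest. The log2 fold change was 1.78 ± 0.27 (adjusted p = 0.0741; DESeq2 adjusted p = 3.45e-06), and it ran from 1.44 to 1.97 when single libraries were left out. MSTN encodes myostatin, the secreted inhibitor of muscle growth, and was at 51.6, 42.0 and 60.0 CPM in control and 15.7, 16.8 and 23.1 CPM in SUC3. The groups did not overlap, and the log2 fold change was -1.47 ± 0.33 (adjusted p = 0.145; DESeq2 adjusted p = 0.00482). IGF1 lies on chromosome 3 from 171766875 to 171847317 and MSTN on chromosome 2 from 119285858 to 119292614 in the same coordinates.

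Around IGF1, IGFBP7, a secreted protein that binds IGFs, was at 30.0, 18.7 and 19.8 CPM in control and 48.6, 37.6 and 54.5 CPM in SUC3 (log2 fold change 1.04 ± 0.24, DESeq2 adjusted p = 0.0111). FOXO1, a transcription factor held in check by insulin signalling, was at 66.3, 78.5 and 82.6 CPM in control and 124, 374 and 119.6 CPM in SUC3, with SUC3 replicate 2 far above the others (log2 fold change 1.44 ± 0.48, and 0.68 without SUC3 replicate 2). The insulin receptor gene INSR was at 40.8, 70.5 and 51.4 CPM in control and 85.3, 161 and 64.0 CPM in SUC3, and its groups overlapped (log2 fold change 0.93 ± 0.30, and 0.46 without SUC3 replicate 2). Of 28 genes of IGF, insulin and mTOR signalling tested, 20 were higher and 8 lower, with a median of 0.51. Nominally 5 were higher and 1 lower, 17.9% and 3.57% against 7.39% and 5.06% of all genes. The 5 became 2, and the median 0.29, without SUC3 replicate 2, and the 5 became 8 without control replicate 1.

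Around MSTN, the picture for the wider TGF-beta family was mixed. TGFBR1, a type I receptor used by TGF-beta and myostatin, was at 39.5, 25.3 and 36.3 CPM in control and 20.5, 24.4 and 21.9 CPM in SUC3, lower in every SUC3 library (log2 fold change -0.60 ± 0.21, adjusted p = 0.274). FSTL1, a secreted follistatin-like protein, was at 93.8, 59.7 and 73.3 CPM in control and 105, 107 and 145 CPM in SUC3, higher in every SUC3 library (log2 fold change 0.66 ± 0.23, adjusted p = 0.284). TGFB1, the ligand, was at 3.52, 4.19 and 2.35 CPM in control and 10.9, 4.42 and 6.05 CPM in SUC3, but it overlaps CCDC97 on the opposite strand and strand use in counting is not stated, so its value is uncertain. Over the 41 members tested 27 were higher and 14 lower (median 0.15, and 0.25 without control replicate 1 or SUC3 replicate 2), with 8 nominally higher and 3 lower (19.5% and 7.32%, against 7.39% and 5.06%). The 8 became 2 without SUC3 replicate 1, 3 without control replicate 2, and 5 without control replicate 3 or SUC3 replicate 3.

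Among regulators of the muscle lineage, MYF6 and MYOD1 differed in opposite directions. MYF6 (MRF4), the myogenic factor most abundant in mature fibres, was at 286, 217 and 304 CPM in control and 61.2, 105 and 141 CPM in SUC3. It was lower in all SUC3 libraries (log2 fold change -1.40 ± 0.29, adjusted p = 0.139; DESeq2 adjusted p = 0.00102). MYOD1, the factor that commits cells to the muscle lineage, was at 7.86, 14.1 and 8.31 CPM in control and 36.3, 17.0 and 26.8 CPM in SUC3, higher in all of them (log2 fold change 1.40 ± 0.43, adjusted p = 0.232). PAX7, which marks satellite cells, the stem cells of muscle, was at 2.21, 1.63 and 2.52 CPM in control and 6.09, 3.19 and 4.01 CPM in SUC3, and MYMK, a membrane protein needed for myoblast fusion, at 0.690, 0.544 and 0.631 CPM in control and 2.08, 0.896 and 2.27 CPM in SUC3. Both groups were separate for both genes, at low levels (adjusted p = 0.282 and 0.275). Of 29 such genes tested 17 were higher and 12 lower, nominally 5 and 2 (17.2% and 6.90%, against 7.39% and 5.06%). The median of 0.12 ran from 0.03 without SUC3 replicate 2 to 0.38 without control replicate 1, and the 5 became 3 without control replicate 2 or SUC3 replicate 1 or 2.

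Genes of the non-muscle actomyosin cytoskeleton, the contractile machinery of cells other than the myofibril, were mostly higher. MYH10 encodes non-muscle myosin IIB and was at 35.9, 23.6 and 22.5 CPM in control and 84.2, 79.9 and 65.5 CPM in SUC3. All SUC3 libraries were well above all controls, with control replicate 1 the highest control (log2 fold change 1.49 ± 0.23, adjusted p = 0.0741; DESeq2 adjusted p = 3.45e-06). ACTN1, the non-muscle alpha-actinin that cross-links actin, was at 13.8, 11.1 and 13.7 CPM in control and 24.5, 27.2 and 29.3 CPM in SUC3, again without overlap (log2 fold change 1.07 ± 0.19, adjusted p = 0.134; DESeq2 adjusted p = 0.000350).

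DESeq2 also called TPM4, a cytoskeletal tropomyosin, and TAGLN2, an actin-binding transgelin. TPM4 was at 42.8, 33.9 and 36.8 CPM in control and 62.4, 58.6 and 56.9 CPM in SUC3 and TAGLN2 at 37.4, 20.8 and 27.7 CPM in control and 58.1, 62.6 and 44.3 CPM in SUC3, with no overlap in either. MYH9, the non-muscle myosin IIA, was at 111, 82.2 and 111 CPM in control and 232, 137 and 118 CPM in SUC3, where SUC3 replicate 3 was close to the controls (log2 fold change 0.68 ± 0.37, adjusted p = 0.475, and 0.33 on the log2 scale without SUC3 replicate 1). Of 42 such genes tested, 32 were higher and 10 lower, with a median of 0.39. Nominally 13 were higher and 0 lower, 31.0% against 7.39% of all genes. DESeq2 called 5 of the 42 higher and 0 lower, against 1.16% and 0.653% of all genes. Fibroblasts, endothelium and smooth muscle express many of these genes, and the levels of their markers are given further down.

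**Figure D2:**
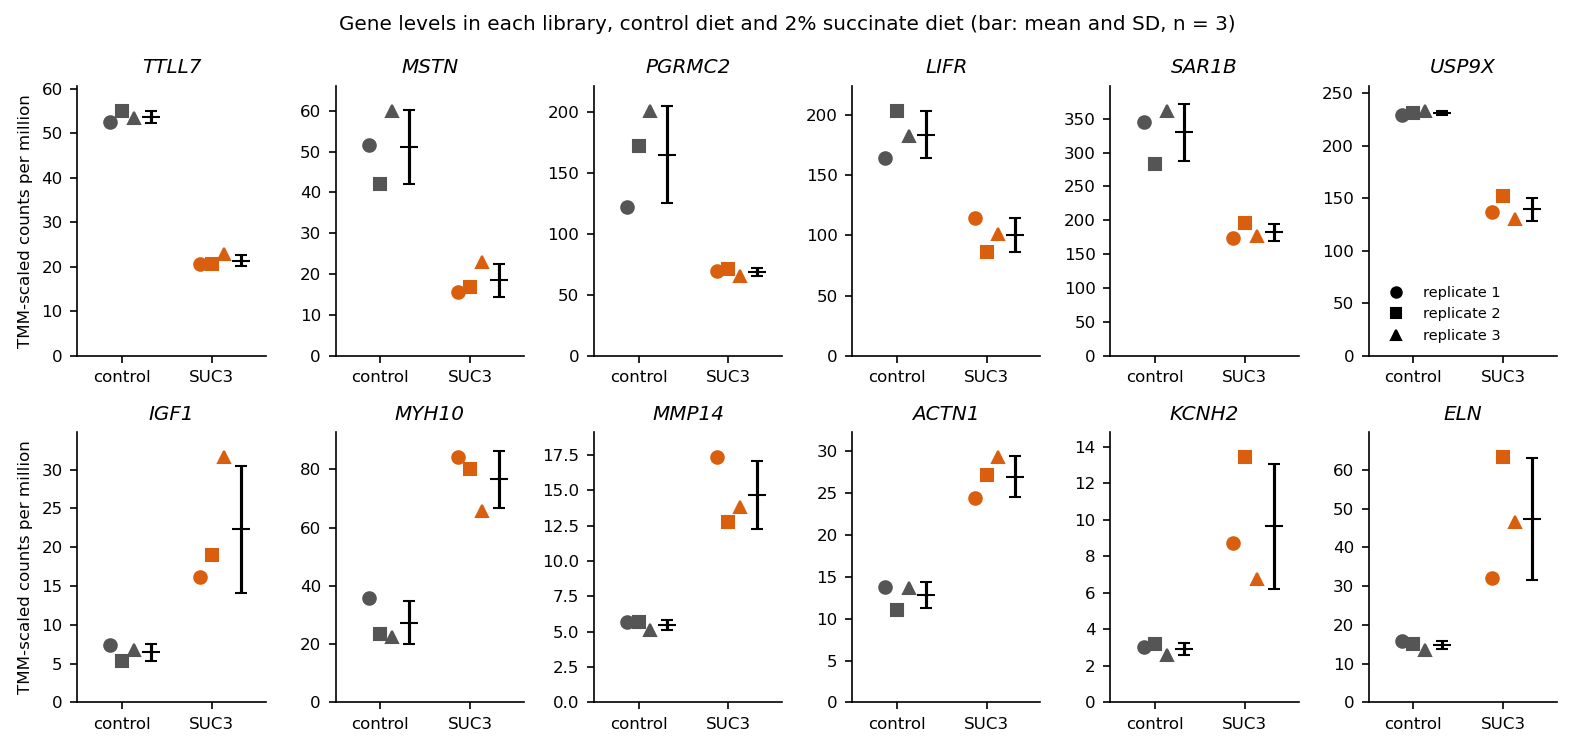
TMM-scaled CPM of 12 genes in each library, with the control diet in grey and 2% succinate in orange, the marker shape giving the replicate and the bar the mean and SD of 3. The upper row holds genes lower in SUC3 and the lower row genes higher, and in each panel the 3 SUC3 libraries do not overlap the 3 controls.

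Matrix genes were mostly higher in SUC3 across collagens, basement membrane, elastic fibres and the proteases that remodel them. MMP14, the membrane-anchored protease that activates MMP2 and cuts fibrillar collagen, was at 5.66, 5.72 and 5.10 CPM in control and 17.4, 12.8 and 13.8 CPM in SUC3. The controls were tight and every SUC3 library was at least 2.23-fold above the highest of them (log2 fold change 1.42 ± 0.24, adjusted p = 0.114; DESeq2 adjusted p = 6.55e-05). MMP2, a gelatinase, was at 24.6, 15.6 and 18.3 CPM in control and 34.5, 37.2 and 41.9 CPM in SUC3, also without overlap (log2 fold change 0.96 ± 0.22; DESeq2 adjusted p = 0.0146). Of 31 matrix proteases and inhibitors tested, 29 were higher and 2 lower (median 0.64). Nominally 12 were higher and 0 lower, or 38.7% against 7.39% of all genes.

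ELN encodes elastin, the core of elastic fibres, and was at 15.9, 15.0 and 13.6 CPM in control and 32.1, 63.4 and 46.6 CPM in SUC3. SPARC, a collagen-binding matricellular protein, was at 254, 125 and 224 CPM in control and 712, 356 and 639 CPM in SUC3, and SERPINH1, the collagen chaperone HSP47, at 35.3, 22.4 and 27.8 CPM in control and 69.3, 45.6 and 61.1 CPM in SUC3. None of these overlapped between diets, and DESeq2 called all 3 (log2 fold changes 1.67 ± 0.34, 1.50 ± 0.31 and 1.04 ± 0.24; edgeR adjusted p = 0.139, 0.139 and 0.163). Among 43 genes of elastic fibres, proteoglycans and matrix glycoproteins, 34 were higher and 9 lower (median 0.30). In this list 11 were nominally higher and 0 lower, 25.6% against 7.39% of all genes. EMILIN2, an elastin-associated glycoprotein described further down, is not on the list and was lower in every SUC3 library (log2 fold change -2.07). The 11 became 6 without control replicate 2, and the median was 0.57 without control replicate 1.

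COL3A1, the collagen III chain of loose connective tissue, was at 189, 131 and 278 CPM in control and 485, 338 and 609 CPM in SUC3, and COL5A2, a chain of collagen V, which nucleates fibrils, at 32.1, 20.5 and 34.3 CPM in control and 53.9, 52.6 and 60.6 CPM in SUC3. COL1A1, the main chain of collagen I, was at 108, 48.1 and 115 CPM in control and 177, 174 and 198 CPM in SUC3, with an adjusted p of 0.350. The diets did not overlap for these genes, and DESeq2 called COL3A1 and COL5A2. Of 17 interstitial collagens tested, 15 were higher and 2 lower, with a median of 0.63. It ran from 0.49 without control replicate 2 to 1.02 without control replicate 1. Nominally 7 were higher and 0 lower, 41.2% against 7.39% of all genes.

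In the basement membrane, COL4A1 and COL4A2, the paired chains of collagen IV, were high above all in SUC3 replicate 1. COL4A1 was at 173, 125 and 209 CPM in control and 706, 314 and 368 CPM in SUC3 and COL4A2 at 83.9, 63.2 and 107 CPM in control and 453, 174 and 177 CPM in SUC3 (log2 fold changes 1.45 ± 0.38 and 1.66 ± 0.44; DESeq2 adjusted p = 0.0138 and 0.0137). Without SUC3 replicate 1 the log2 fold change of COL4A2 was 1.05. Of 20 basement membrane genes 17 were higher and 3 lower. The median of 0.52 was 0.28 without SUC3 replicate 1 and 0.80 without control replicate 3. The 8 members nominally higher (40% against 7.39% of all genes) became 3 without SUC3 replicate 1 and 5 without control replicate 2.

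The levels of vessel and connective tissue markers stand here beside the matrix genes. Their part in the matrix and actomyosin results was not tested, and in whole muscle more cells of a type cannot be told apart from more RNA per cell. All 25 endothelial markers had a positive log2 fold change, with a median of 0.61. Their summed level was 722 to 865 CPM in control and 1005 to 1628 CPM in SUC3, highest in SUC3 replicate 1. CLDN5, a tight junction protein of endothelium, was at 8.14, 10.1 and 10.7 CPM in control and 22.8, 16.8 and 18.1 CPM in SUC3 and was called by DESeq2 (adjusted p = 0.0235). PECAM1, the endothelial adhesion molecule CD31, was at 77.4, 63.2 and 87.2 CPM in control and 198, 110.3 and 134 CPM in SUC3. Nominally 10 endothelial markers were higher and 0 lower (40% against 7.39% of all genes), but 1 without SUC3 replicate 1, 4 without control replicate 2 and 6 without control replicate 3.

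Fibroblast and fibro-adipogenic progenitor markers summed to 1078 to 1546 CPM in control and 1701 to 2081 CPM in SUC3, and 14 of 19 tested were higher. Part of that sum is collagen: COL1A1 and COL3A1 are on this list too, and another list member without matrix function, PDGFRA, was at 31.2, 21.5 and 27.2 CPM in control and 24.9, 37.0 and 34.7 CPM in SUC3. DCN, the proteoglycan decorin that fibroblasts make in quantity, was at 191, 117 and 140 CPM in control and 107, 158 and 194 CPM in SUC3. PDGFRA and DCN overlapped between the diets (adjusted p = 0.619 and 0.969). Of 20 fibroblast markers 1 was at 0 in every library, and the 4 nominally higher (21.1% against 7.39% of all genes) became 1 without control replicate 2 or SUC3 replicate 1. Without SUC3 replicate 3 they became 2, with 11 of 19 higher and a median of 0.07 in place of 0.27.

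Smooth muscle and pericyte markers were higher for 15 of 18 (median 0.49), with summed levels of 5540 to 5946 CPM in control and 4939 to 7247 CPM in SUC3, which overlap. CNN1, the smooth muscle calponin, was at 7.31, 6.97 and 8.03 CPM in control and 11.4, 15.0 and 21.2 CPM in SUC3, and the pericyte potassium channel gene KCNJ8 at 3.31, 2.67 and 2.81 CPM in control and 10.2, 3.58 and 7.78 CPM in SUC3. ABCC9, the regulatory subunit that pairs with the KCNJ8 channel and is also present in muscle fibres, differed the other way, at 152, 196 and 154 CPM in control and 121, 71.0 and 104 CPM in SUC3. DESeq2 called CNN1 and ABCC9. The 5 smooth muscle markers nominally higher (27.8% against 7.39% of all genes) became 3 without control replicate 2 or SUC3 replicate 1, and the median was 0.25 without the latter.

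Immune cell markers were even between the diets: 8 of 18 tested were higher and 10 lower, the summed level was 54.2 to 83.3 CPM in control and 53.4 to 79.8 CPM in SUC3, and 0 of 18 were nominal by edgeR or called by DESeq2. Nerve and Schwann cell markers, with 11 of 15 higher, also held 0 nominal genes and 0 DESeq2 calls. Adipocyte markers were higher for 15 of 17 (median 0.75), most of all in SUC3 replicate 2. PLIN1, the coat protein of lipid droplets, was at 3.24, 2.56 and 3.15 CPM in control and 6.09, 19.2 and 6.34 CPM in SUC3, and ADIPOQ, adiponectin, at 33.7, 36.1 and 43.8 CPM in control and 52.9, 188 and 67.5 CPM in SUC3. The summed adipocyte level was 749 CPM in SUC3 replicate 2, against 361 and 385 CPM in the other SUC3 libraries and 305 to 434 CPM in control. Without SUC3 replicate 2 the list's median was 0.32, 9 of 17 were higher and the 5 nominally higher markers (29.4% against 7.39% of all genes) became 2. PLIN1 and ADIPOQ, at log2 fold changes of 1.82 ± 0.50 and 1.44 ± 0.50, were then at 1.06 and 0.67.

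**Figure D3:**
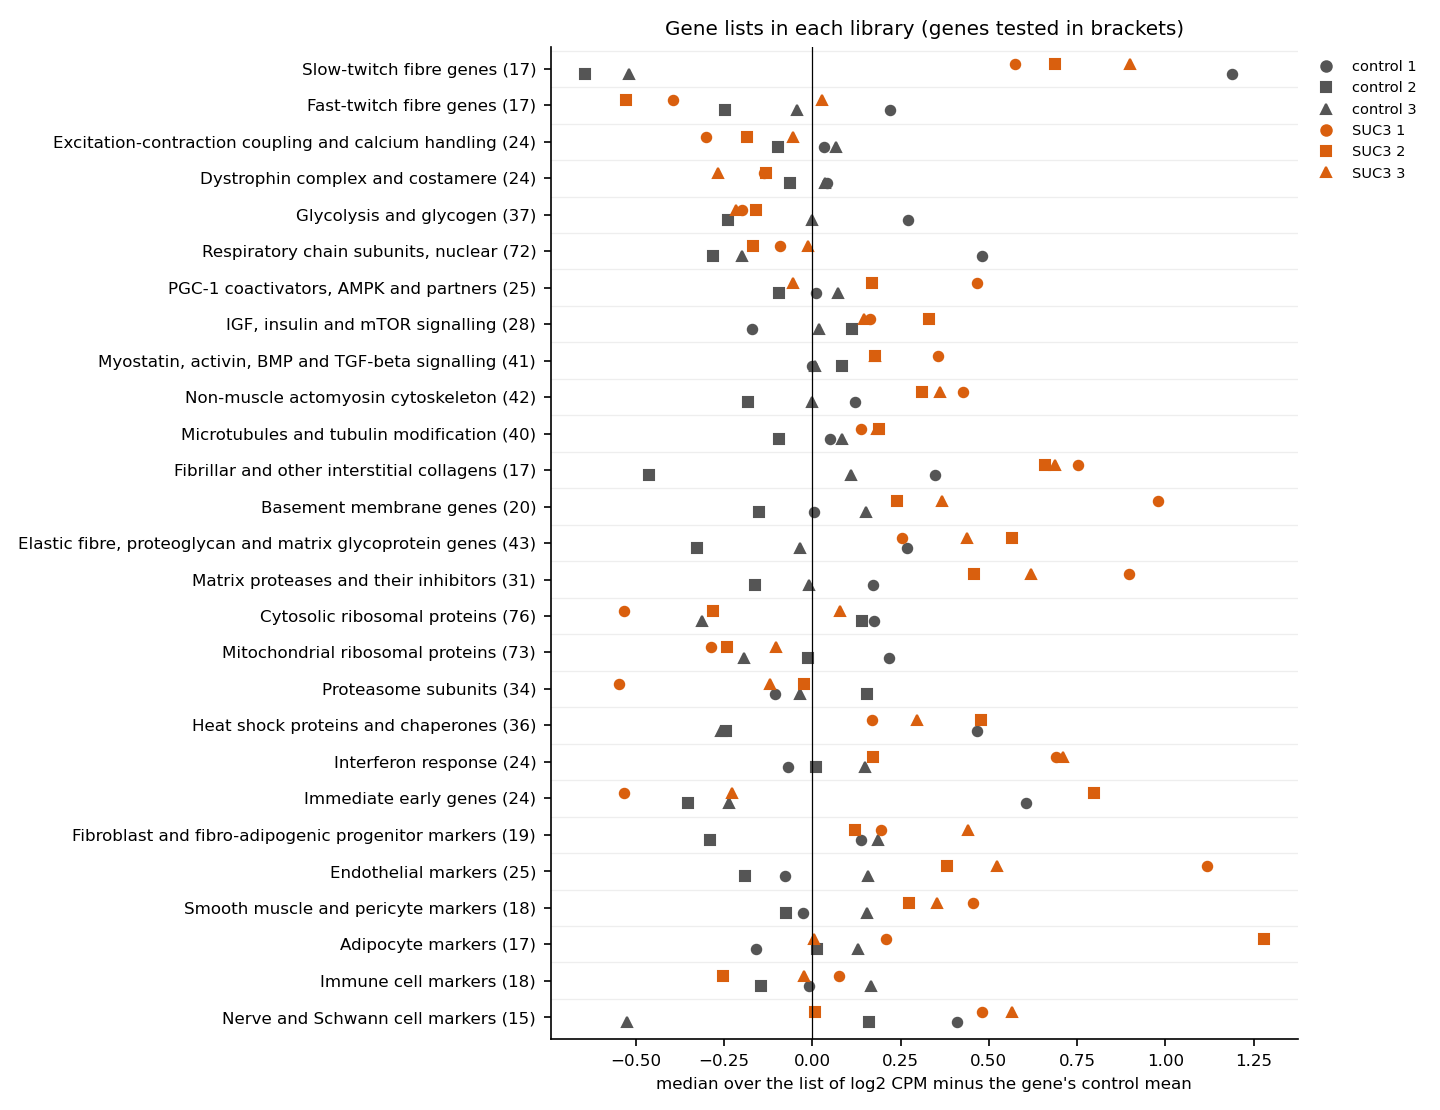
For each gene list, the median over its tested genes (number in brackets) of the log2 CPM minus the gene's control mean, with 1 symbol per library, control in grey and SUC3 in orange. Collagens, basement membrane, matrix proteases, actomyosin and endothelial markers have all 3 SUC3 libraries to the right of all 3 controls, while slow-fibre and respiratory chain genes are split by control replicate 1.

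The contractile apparatus showed a slow and fast fibre pattern that turned on control replicate 1. MYH1, the fast IIx myosin heavy chain and the most abundant of the heavy chains measured, was at 57250, 44230 and 48130 CPM in control and 25790, 34440 and 35430 CPM in SUC3. It was lower in every SUC3 library (log2 fold change -0.65 ± 0.27, adjusted p = 0.350), and without single libraries the log2 fold change was -0.73 to -0.51. Per unit of gene length, its level was 7984, 7933 and 7934 FPKM in control and 4502, 5781 and 5642 FPKM in SUC3. MYH2, the IIa chain, was at 3178, 1411 and 1618 FPKM in control and 3747, 2166 and 3708 FPKM in SUC3, and MYH7, the slow chain, at 1012, 348 and 366 FPKM in control and 1056, 944 and 832 FPKM in SUC3. On this scale control replicate 1 was the highest control for both and lay within the range of the SUC3 libraries. The FPKM carry no TMM factors, which were 0.857 for control replicate 1 and 0.978 to 1.07 for SUC3. TMM scaling would therefore place control replicate 1 higher against the SUC3 libraries. Reads can be shared between these near-identical genes, so their levels are uncertain.

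Of 17 slow-fibre genes 16 were higher, with a median of 0.51 and 1 nominally higher (5.88% against 7.39% of all genes). Without control replicate 1 all 17 were higher, the median was 1.36 and 15 were nominal, while all genes tested had a median of -0.0041. The nominal share of all genes in that fit is not given here. Without control replicate 2 the median was 0.22 and 11 were higher. The oxygen store MB, myoglobin, was at 6262, 3618 and 6068 CPM in control and 7859, 7189 and 8238 CPM in SUC3 and was the slow-fibre gene whose diets did not overlap. Of 17 fast-fibre genes 15 were lower (median -0.25), which became -0.14 without control replicate 1 and -0.56 without SUC3 replicate 3.

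Membrane and calcium-handling genes of the fibre leaned lower. SLN encodes sarcolipin, the small inhibitor of the SERCA calcium pump, and was at 2187, 1858 and 1192 CPM in control and 845, 765 and 985 CPM in SUC3. CACNB1, the beta subunit of the voltage sensor in the T-tubule, was at 146, 177 and 186 CPM in control and 87.2, 94.5 and 94.7 CPM in SUC3. Both were lower in all SUC3 libraries and called by DESeq2 (log2 fold changes -1.01 ± 0.29 and -0.88 ± 0.20). ORAI1, the store-operated calcium channel, was at 15.7, 20.1 and 14.9 CPM in control and 9.46, 6.67 and 11.5 CPM in SUC3 (log2 fold change -0.88 ± 0.25, adjusted p = 0.205). Of 24 genes of excitation-contraction coupling 19 were lower, 3 of them nominally (12.5% against 5.06% of all genes), and 5 without SUC3 replicate 3.

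ANK3, an ankyrin that anchors membrane proteins at the costamere, was at 166, 151 and 175 CPM in control and 107, 108 and 108 CPM in SUC3, with SUC3 libraries within 1.1 CPM of each other. Of 24 dystrophin complex and costamere genes 16 were lower and 6 were nominally lower, 25% against 5.06% of all genes. LMOD3, a nucleator of sarcomeric thin filaments, was at 702, 1446 and 1201 CPM in control and 289, 462 and 523 CPM in SUC3 (DESeq2 adjusted p = 0.0201). FLNC, the muscle filamin at the Z-disc, differed the other way, at 3761, 2185 and 2358 CPM in control and 6078, 6857 and 3976 CPM in SUC3 (log2 fold change 1.03 ± 0.36, adjusted p = 0.274).

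In energy metabolism, DESeq2 called PRKAG3 and PRKAA2 of the AMPK complex and the enzymes AMPD1 and ALDOA lower, while their lists held genes on both sides. PRKAG3, the gamma-3 subunit of AMPK found in fast glycolytic fibres, was at 192, 137 and 151 CPM in control and 49.4, 46.1 and 81.3 CPM in SUC3. PRKAA2, the alpha-2 catalytic subunit, was at 235, 244 and 195 CPM in control and 113, 164 and 123 CPM in SUC3. Both were lower without overlap (log2 fold changes -1.44 ± 0.32 and -0.75 ± 0.19; DESeq2 adjusted p = 0.00385 and 0.0185). CAMKK2, a kinase that activates AMPK, was higher, at 14.8, 14.7 and 17.4 CPM in control and 29.1, 27.4 and 25.3 CPM in SUC3 (DESeq2 adjusted p = 0.0415).

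AMPD1, the muscle AMP deaminase, was at 465, 902 and 528 CPM in control and 165, 242 and 286 CPM in SUC3. ALDOA, the muscle aldolase of glycolysis, was at 20220, 14440 and 14390 CPM in control and 11250, 10080 and 11620 CPM in SUC3. The diets were separate for both, and DESeq2 called them lower (adjusted p = 0.0169 and 0.0418). AMPD1 belongs to a list of creatine, purine nucleotide and amino acid metabolism with 12 of 35 higher and 23 lower (median -0.12). Nominally 1 was higher and 3 were lower (2.86% and 8.57%, against 7.39% and 5.06% of all genes). Of 37 genes of glycolysis and glycogen 27 were lower and 10 higher (median -0.24), nominally 6 and 2 (16.2% and 5.41%, against 5.06% and 7.39% of all genes). Without control replicate 1 the median was -0.09 with 2 nominally lower and 4 higher, and without SUC3 replicate 1 or 2 there were 2 or 3. LDHA, lactate dehydrogenase A, was at 5699, 3911 and 4391 CPM in control and 3468, 2816 and 4772 CPM in SUC3, and its groups overlapped (adjusted p = 0.599).

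Among genes that handle succinate itself, SDHA, SDHB and SUCNR1 overlapped between the diets. SDHA, the catalytic subunit of succinate dehydrogenase, was at 718, 499 and 614 CPM in control and 824, 516 and 588 CPM in SUC3 and SDHB, its iron-sulfur subunit, at 426, 304 and 353 CPM in control and 375, 327 and 387 CPM in SUC3. The receptor SUCNR1 was near the detection limit, at 0.345, 0.436 and 0.573 CPM in control and 0.588, 0.224 and 0.599 CPM in SUC3, where 3 counts correspond to 0.160 to 0.207 CPM. The 95% interval of the log2 fold change, from its SE and 8 residual degrees of freedom, was -0.54 to 0.68 for SDHA, -0.40 to 0.41 for SDHB and -1.38 to 1.48 for SUCNR1. Of 17 genes of succinate transport, sensing and turnover tested, 4 were higher and 13 lower (median -0.10, and 0.01 without control replicate 1). EGLN3, one of the prolyl hydroxylases that succinate inhibits and itself a target of HIF-1, was at 185, 169.7 and 227 CPM in control and 92.1, 114 and 58.1 CPM in SUC3, lower in all SUC3 libraries (log2 fold change -1.14 ± 0.29; DESeq2 adjusted p = 0.0180). HIF1A was at 36.8, 23.7 and 30.0 CPM in control and 22.5, 28.4 and 16.6 CPM in SUC3, with overlap. The hypoxia and angiogenic factor list, which holds EGLN3 and HIF1A too, had 17 of 27 higher and 10 lower (median 0.26), nominally 8 and 3 (29.6% and 11.1%, against 7.39% and 5.06% of all genes). The 8 became 5 without control replicate 2.

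Nuclear genes of the respiratory chain were lower for 59 of 72 (median -0.13), with 0 nominal by edgeR and 0 called by DESeq2. Without control replicate 1 the direction turned: 66 of 72 were higher, with a median of 0.16. TCA cycle genes did the same, at a median of -0.05 with all libraries and 0.19 without control replicate 1. PC, the pyruvate carboxylase that refills the cycle, was at 14.8, 15.4 and 17.5 CPM in control and 12.02, 6.16 and 7.54 CPM in SUC3 and IDH1, the cytosolic isocitrate dehydrogenase, at 25.4, 21.2 and 30.2 CPM in control and 14.6, 9.07 and 18.3 CPM in SUC3. Both were lower in every SUC3 library (adjusted p = 0.232 and 0.220).

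Some named genes with high SUC3 means were uneven among the SUC3 libraries. NR4A3, an orphan nuclear receptor induced by exercise and by cyclic AMP, was at 0.552, 0.544 and 0.745 CPM in control and 104, 366 and 1.38 CPM in SUC3. SUC3 replicates 1 and 2 were 139.5-fold or more above the highest control and replicate 3 was close to them. Its log2 fold change was 7.98 ± 1.69 (adjusted p = 0.139; DESeq2 adjusted p = 1.38e-05), and it was 6.40 without SUC3 replicate 2. PPARGC1A, the coactivator PGC-1 alpha that drives mitochondrial biogenesis, was at 45.8, 13.5 and 31.2 CPM in control and 123, 383 and 27.2 CPM in SUC3, in the same order, with SUC3 replicate 3 inside the control range. Its groups overlapped (log2 fold change 2.56 ± 0.87, adjusted p = 0.261; 1.32 without SUC3 replicate 2).

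SIK1, a salt-inducible kinase that is a target of the cyclic AMP factor CREB, was at 18.3, 14.5 and 14.7 CPM in control and 45.9, 117 and 52.6 CPM in SUC3, above control in all SUC3 libraries (log2 fold change 2.18 ± 0.41, adjusted p = 0.134; DESeq2 adjusted p = 5.22e-05). LPIN1, the phosphatidate phosphatase lipin 1, was at 142, 147 and 193 CPM in control and 326, 1042 and 299 CPM in SUC3 and was called by DESeq2 (adjusted p = 0.00511), with a log2 fold change of 1.79 ± 0.44 that was 0.96 without SUC3 replicate 2. SLC25A33, a mitochondrial carrier of pyrimidine nucleotides, was at 11.3, 11.1 and 11.1 CPM in control and 16.3, 97.5 and 25.02 CPM in SUC3 and its log2 fold change of 2.05 ± 0.50 was 0.89 without SUC3 replicate 2. ADM, the vasodilator adrenomedullin, was at 5.24, 3.32 and 3.15 CPM in control and 11.4, 29.9 and 5.57 CPM in SUC3 (log2 fold change 2.01 ± 0.46, and 1.13 without SUC3 replicate 2). VEGFA, the main angiogenic factor, was at 267, 153 and 178 CPM in control and 622, 742 and 193 CPM in SUC3, where SUC3 replicate 3 lay within the controls.

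The PGC-1 and AMPK list that holds several of these had 16 of 25 higher and 9 lower. Nominally 10 were higher, or 40% against 7.39% of all genes, and 2 lower, or 8% against 5.06%. The 10 became 5 without SUC3 replicate 2. Classic immediate early genes were not shifted one way: 11 of 24 were higher and 13 lower, nominally 2 and 5 (8.33% and 20.8%, against 7.39% and 5.06% of all genes). Nominal counts were 4 and 1 without control replicate 1 or SUC3 replicate 1 and 0 and 6 without SUC3 replicate 2, and the median of -0.12 ran from -0.63 without SUC3 replicate 2 to 0.46 without control replicate 1. ATF3, a stress-induced factor, was at 18.9, 3.38 and 7.34 CPM in control and 19.8, 99.4 and 13.8 CPM in SUC3, with SUC3 replicate 2 alone far above the rest. Heat shock and chaperone genes were higher for 25 of 36 (median 0.27, 7 or 19.4% nominally higher against 7.39% of all genes), but that count was 18 without control replicate 1 and 1 without control replicate 2, control replicate 3 or SUC3 replicate 2.

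**Figure D4:**
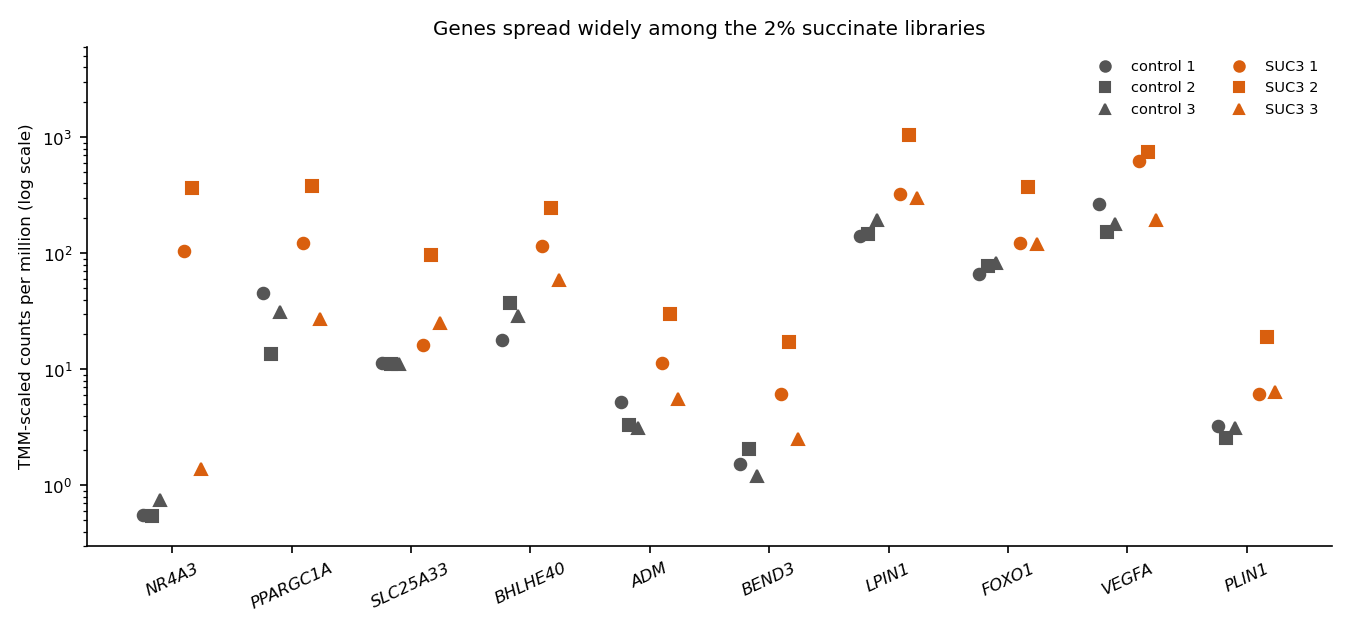
TMM-scaled CPM on a log axis for 10 genes, 1 symbol per library, control in grey and SUC3 in orange. SUC3 replicate 2 is the highest library for every gene shown, and for NR4A3, PPARGC1A and VEGFA SUC3 replicate 3 lies at or near the control level.

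Clock genes differed in both directions. PER3, a period gene, was at 17.4, 26.7 and 45.9 CPM in control and 8.87, 10.9 and 6.17 CPM in SUC3, and TEF, an output factor of the clock, at 48.7, 67.3 and 71.8 CPM in control and 38.8, 36.0 and 31.1 CPM in SUC3. NPAS2, a partner of ARNTL in the activating arm, was near the detection limit at 0.207, 0.490 and 0.401 CPM in control and 1.39, 1.57 and 1.98 CPM in SUC3, and BHLHE40, a repressor of that arm, at 18.1, 37.6 and 28.7 CPM in control and 117, 247 and 59.2 CPM in SUC3. None of these overlapped between diets, and DESeq2 called PER3 and NPAS2 (adjusted p = 0.00334 and 0.0253). NR1D1, which encodes the repressor REV-ERB alpha and is named here after its values were seen, was at 19.3, 20.7 and 22.6 CPM in control and 9.24, 4.99 and 4.37 CPM in SUC3 (DESeq2 adjusted p = 0.0486). Of 19 clock genes tested 8 were higher and 11 lower, nominally 3 and 4 (15.8% and 21.1%, against 7.39% and 5.06%). The hour of sampling is not given in the labels, so its part was not tested.

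Lists of protein synthesis and turnover went different ways. Of 76 cytosolic ribosomal protein genes 72 were lower (median -0.25), of 73 mitochondrial ones 62 (median -0.25), and of the 34 proteasome subunits listed all 34 (median -0.20). Nominally they held 1, 6 and 1 lower, or 1.32%, 8.22% and 2.94%, against 5.06% of all genes. RPL6, a protein of the large ribosomal subunit, was the one that DESeq2 called, at 314, 315 and 256 CPM in control and 121, 113 and 173 CPM in SUC3 (adjusted p = 0.0107). Without SUC3 replicate 1 the medians were -0.11, -0.18 and -0.05. Without control replicate 1 the mitochondrial list had a median of -0.10 and 2 nominally lower, and without SUC3 replicate 2 it had 0. PSMB8, a proteasome subunit that is not on the proteasome list, differed the other way. Its log2 fold change was 0.71, and 0.59 to 0.83 with single libraries left out. Translation factors and tRNA ligases held 14 higher and 24 lower of 38 (median -0.05), with 0 nominal and 0 DESeq2 calls. Atrogenes, calpains and autophagy genes held 18 higher and 16 lower of 34 (median 0.02). Nominally they held 5 and 0 (14.7% and 0%, against 7.39% and 5.06% of all genes), which became 0 and 3 without SUC3 replicate 2. Genes of the unfolded protein response held 17 higher and 7 lower of 24 (median 0.22), nominally 2 and 1 (8.33% and 4.17%, against 7.39% and 5.06%).

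Ribosomal protein and proteasome genes are short, and over all genes short ones were lower. The median log2 fold change went in steps from -0.13 in the shortest of 5 equal bins of genes (201 to 1714 bases) to 0.07 in the longest bin. Nominally higher genes made up 4.24% of the shortest bin and 9.57% of the longest, and nominally lower ones 5.33% and 5.26%. By library, the shortest bin lay at -0.22, -0.13 and 0.00 in SUC3 replicates 1, 2 and 3, and at 0.10, 0.03 and -0.11 in the controls. The median gene length was 633 bases for cytosolic ribosomal proteins and 6215 bases for interstitial collagens, against 3316 bases over all genes tested. Level mattered in a similar way: in 5 equal bins of mean CPM the median went in steps from 0.13 in the lowest (0.224 to 2.41 CPM) to -0.07 in the highest. Nominally higher genes made up 7.39% of the lowest bin and 6.16% of the highest, and nominally lower ones 2.29% and 6.94%. The part of length in either group was not tested, nor that of level in any list.

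Several of the genes with the smallest p belong to no list above. PGRMC2, a haem-binding membrane protein, was at 122, 172 and 201 CPM in control and 69.5, 71.5 and 65.7 CPM in SUC3 (log2 fold change -1.26 ± 0.21, adjusted p = 0.114). LIFR, the receptor of leukaemia inhibitory factor, a cytokine that acts on muscle growth, was at 164, 203 and 182 CPM in control and 114, 85.8 and 101 CPM in SUC3 (log2 fold change -0.87 ± 0.16, adjusted p = 0.134). SAR1B, a GTPase of vesicle export from the endoplasmic reticulum, was at 344, 283 and 362 CPM in control and 174, 197 and 177 CPM in SUC3, and SLC12A2, a sodium, potassium and chloride cotransporter, at 46.5, 54.2 and 65.0 CPM in control and 21.1, 22.7 and 35.0 CPM in SUC3. All 3 SUC3 libraries were below all controls for each of these, and DESeq2 called each lower.

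Ion channel genes were on both sides. KCNH2, a potassium channel known from the heart, was at 3.03, 3.21 and 2.58 CPM in control and 8.71, 13.4 and 6.76 CPM in SUC3, and SCN3B, an auxiliary subunit of sodium channels, at 5.72, 2.78 and 1.78 CPM in control and 12.8, 19.9 and 17.7 CPM in SUC3. KCNS3, a modulatory potassium channel subunit, was at 24.8, 67.8 and 37.1 CPM in control and 19.0, 5.88 and 9.52 CPM in SUC3. DESeq2 called the first pair higher and KCNS3 lower (adjusted p = 0.000329, 0.000173 and 0.0195). NREP, a small protein of regenerating neurons and of fibroblasts, was at 98.7, 83.9 and 43.9 CPM in control and 237, 171 and 364 CPM in SUC3 (log2 fold change 1.77 ± 0.33, adjusted p = 0.134).

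The largest differences downward were spread among the controls. CDH26, a cadherin, was at 18.3, 72.2 and 13.8 CPM in control and 3.37, 5.10 and 2.75 CPM in SUC3, and its log2 fold change of -3.21 ± 0.76 was -2.10 without control replicate 2. EMILIN2, an elastin-associated glycoprotein, was at 13.8, 54.5 and 18.6 CPM in control and 7.80, 7.28 and 5.57 CPM in SUC3, and its -2.07 ± 0.44 became -1.24 without control replicate 2. DKK2, a secreted modulator of Wnt signalling, was at 51.0, 22.2 and 9.92 CPM in control and 4.75, 2.30 and 4.73 CPM in SUC3 (log2 fold change -2.81 ± 0.59; DESeq2 adjusted p = 0.000241). GSTM3, a glutathione transferase, was at 123, 86.0 and 97.3 CPM in control and 15.4, 25.8 and 39.3 CPM in SUC3, where the groups were far apart (log2 fold change -1.93 ± 0.50; DESeq2 adjusted p = 0.00996). The glutathione transferases are a family of similar genes, so its value is uncertain.

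USP9X and EIF2S3, X-linked genes that escape X inactivation in mammals such as humans, were among the lower genes, and other such genes were then looked up after these values were seen. USP9X, a deubiquitinase, was at 229, 231 and 234 CPM in control and 137, 152 and 130.1 CPM in SUC3, and EIF2S3, a subunit of the initiation factor eIF2, at 70.3, 84.6 and 57.6 CPM in control and 29.2, 35.9 and 41.7 CPM in SUC3. ZFX, a zinc-finger factor, was at 45.9, 49.3 and 48.0 CPM in control and 24.2, 33.4 and 32.3 CPM in SUC3, and KDM6A, a histone demethylase, at 61.1, 42.4 and 49.6 CPM in control and 30.2, 36.9 and 27.8 CPM in SUC3. The diets did not overlap for any of these, and DESeq2 called USP9X, EIF2S3 and ZFX. Over 16 such genes 12 were lower and 4 higher, 6 lower and 0 higher without overlap, against 8.88% and 9.15% of all genes. These counts include USP9X and EIF2S3, whose low values prompted the look-up, so they are no test of the group. Among those not lower, DDX3X was at 430.5, 336 and 406 CPM in control and 421, 669 and 452 CPM in SUC3 and KDM5C at 62.2, 66.3 and 78.7 CPM in control and 82.5, 77.0 and 62.0 CPM in SUC3. The 486 X-linked genes tested had a median of -0.06. Sex is not given in the labels, so its part in these or other results was not tested.

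The same fit compared the SUC3 diet directly with the lower doses. Against SUC2, 2 genes passed by edgeR (0.015% of 13319), and 69 did without SUC3 replicate 2, 14 without SUC3 replicate 3, 6 without SUC1 replicate 2 and 1 without SUC2 replicate 2 or SUC3 replicate 1. MYF6 was at 102 ± 39.9 CPM in SUC3 and 724 ± 55.3 CPM in SUC2 (SD, n = 3), with 61.2, 105 and 141 CPM against 786, 709 and 678 CPM. The log2 fold change was -2.83 ± 0.30 (SE, adjusted p = 0.00445), and MYF6 was lower in SUC3 than in SUC2 in all 24 alternative settings (adjusted p up to 0.0499). NFIL3, a transcriptional repressor linked to the clock, was at 16.4 ± 2.49 CPM in SUC3 and 58.8 ± 12.1 CPM in SUC2, with 15.3, 14.6 and 19.2 CPM against 50.8, 72.8 and 52.8 CPM. Its log2 fold change was -1.84 ± 0.23 (SE, adjusted p = 0.0128). The call was lost without SUC2 replicate 2 or SUC3 replicate 1, and with the replicate number added to the fit as a block. Against control NFIL3 gave -0.17 ± 0.22 (adjusted p = 0.792).

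GAS1, a membrane protein that binds hedgehog ligands, was at 7.999, 8.44 and 9.46 CPM in control and 22.2, 16.0 and 13.3 CPM in SUC3, and at 5.54 ± 0.264 CPM in SUC2. It was among the 5 smallest p against SUC2 and did not pass. Against SUC1, 0 genes passed by edgeR (0% of 13319), with 974 nominal and 69 by DESeq2, and by edgeR 2 without SUC3 replicate 3 and 1 without SUC3 replicate 2. The smallest p there belonged to DACH1, HEXIM1, PGM2L1, CDH11 and TTLL7. DACH1, a transcriptional cofactor, was at 10.7 ± 5.53 CPM in SUC3 and 1.63 ± 0.699 CPM in SUC1. CDH11, a cadherin of mesenchymal cells, was at 9.80 ± 1.55 CPM in SUC3 and 3.74 ± 0.924 CPM in SUC1.

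TTLL7 had means of 53.7, 40.4, 28.3 and 21.4 CPM at 0%, 0.5%, 1% and 2% succinate. The direct difference between SUC3 and SUC2 did not pass (log2 fold change -0.40, adjusted p = 0.385), nor did that between SUC3 and SUC1 (-0.92, adjusted p = 0.287). MYH10 had means of 27.3, 43.9, 57.4 and 76.6 CPM in the same order. IGF1 was at mean levels of 6.48, 13.7, 10.6 and 22.3 CPM, and KCNH2 at 2.94, 3.56, 3.74 and 9.64 CPM. SIK1 was at 15.8, 73.0, 89.3 and 71.7 CPM, and its SUC3 mean lay within 1 SD of the means of the other succinate diets. These means share the same control libraries. MSTN, low at 2%, was at 53.8, 16.5 and 35.0 CPM at 0.5% and at 59.8, 70.0 and 62.8 CPM at 1%. At 1% it did not lie below the controls as a group, which were at 51.6, 42.0 and 60.0 CPM.

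**Figure D5:**
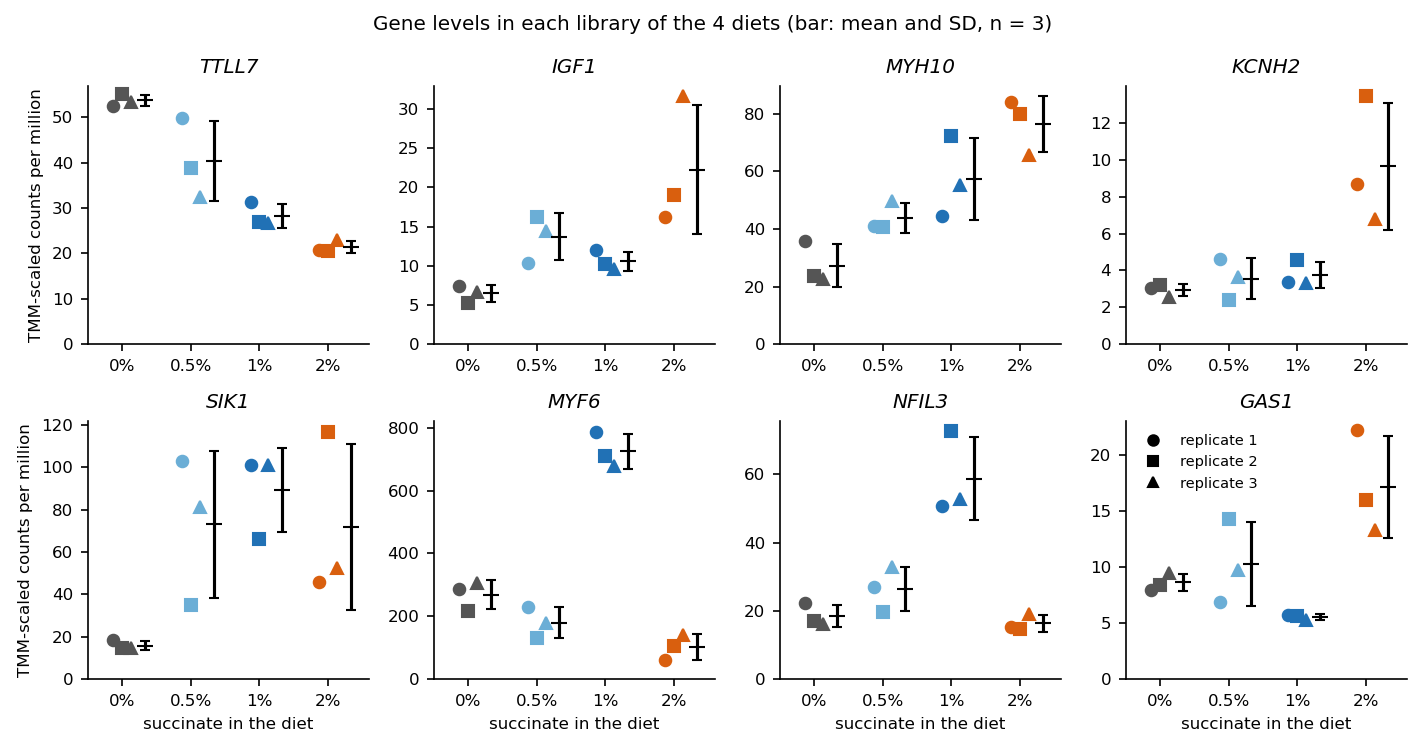
TMM-scaled CPM of 8 genes in each library of the 4 diets, by percent of succinate, with the bar giving the mean and SD of 3 libraries. MYF6 and NFIL3 peak at 1% and are low at 2%, TTLL7 is lowest at 2%, and KCNH2 is high at 2% alone.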

How the data were processed

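RNA was sequenced from longissimus dorsi of Tan sheep. The authors deposited 1 table of raw read counts per gene and FPKM, counts scaled to library size and gene length, for all 12 libraries. The submitters' processing notes name the mouse builds GRCm38 and mm10 although the genes are those of sheep, while for the aligner, counter, strand setting and sheep build the sources used here give nothing. Of 21257 genes, those passing edgeR's filterByExpr by diet (13319) were fitted with edgeR 4.0.16 in R 4.3.3, quasi-likelihood with TMM scaling and diet as the only factor. All 12 libraries entered the fit and share 1 estimate of spread (8 residual degrees of freedom). P-values were adjusted by the Benjamini-Hochberg method over all genes tested, and every adjusted p not credited to another tool is edgeR's. SE is the log2 fold change divided by the square root of F. DESeq2 1.42.0, limma 3.58.1, other scalings and filters, FPKM, a replicate block and each library left out were alternatives. The fit was tested on simulated counts.

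Replicates of the control and of the SUC3 diet were compared within each diet, and none was a copy of another. That check did not cover SUC1 and SUC2. No list was tested as a set: counts of members and their median stand beside those of all genes. The nominal shares of all genes come from the fit of all 12 libraries. They are not given for the fits without single libraries, where they may differ. Of 1408 listed symbols 1379 were matched. The members and lists were chosen with earlier results of these data known. Named genes were the edgeR calls; among genes without overlap between diets and with a mean of at least 5 CPM, the 12 with the smallest p and the 8 nominal ones with the largest fold change in each direction; up to 4 members per list by p; a panel of 13; and the 5 smallest p against each other dose. DDX3X, KDM5C, KDM6A, SMC1A, ZFX and NR1D1 were chosen after their values were seen. Promoter motifs were not analysed here, and some genes that the rule names are not reported here.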

Additional observations from a re-analysis of the deposited data

Results flagged for a closer look

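The effect of MYF6 differed between the 2% and the 1% diet when the difference itself was tested in the edgeR fit. The log2 fold change of SUC3 minus SUC2 was -2.83, and all 3 SUC3 libraries were below all 3 SUC2 libraries. For NFIL3 the same test gave -1.84, again with the 3 SUC3 libraries below the 3 SUC2 libraries. Its SUC3 libraries overlapped the controls, whereas those of MYF6 were below them.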

How the results depend on the processing

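Against control, the main count of 1 called gene became 0 with upper-quartile factors, with either FPKM scale and with the replicate block, 2 with library totals (TTLL7 not among them), 3 without a filter, 4 at a mean of at least 5 CPM and 241 with DESeq2. The pairwise fit of the 6 libraries called 1 gene, which was not TTLL7. The count ran from 0 to 11 when single libraries were left out, with 11 without control replicate 1 and 9 without SUC3 replicate 3. Against SUC2, the count of 2 became 6 without a filter, 239 with DESeq2, 4 on log2(FPKM + 1), 4 in the pairwise fit and 1 with the replicate block, which ended the call of NFIL3, and ran from 1 to 69 with single libraries left out (69 without SUC3 replicate 2). Against SUC1, the count of 0 was 69 with DESeq2 and ran from 0 to 2 with single libraries left out. Directions turned for HBB (0.964) and TNNI3 (0.173) without control replicate 1, and on limma's log2 CPM for APOA1 (-0.054) and SUCNR1 (-0.011). SDHA was -0.052 without control replicate 2 and -0.146 without SUC3 replicate 1. SDHB was -0.101, -0.016 and -0.041 without control replicate 2, SUC3 replicate 1 and SUC3 replicate 3. SUCNR1 was -0.1, -0.147 and -0.152 without control replicate 1, SUC3 replicate 1 and SUC3 replicate 3. With single libraries left out, the log2 fold changes ran up to 0.209 for SDHA and 0.381 for SUCNR1, and down to -1.468 for HBB and -1.947 for TNNI3. The cause was not tested. Of 5215 gene values recomputed, 5092 kept direction and side of the threshold. TTLL7 alone was called against control in the main fit, so this count is mostly of genes that stayed uncalled. The 13 values that lost a call were all of TTLL7. Same-numbered SUC3 and control libraries correlated at -0.02, 0.14 and -0.20 in their deviations from the group means. The labels do not say whether the numbers pair them, and these correlations cannot decide it. With 3 libraries per diet and a biological coefficient of variation of 0.279, small differences were not detectable. The promoter motif search was not run.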

Other observations

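Interferon-response genes were higher for 21 of 24 tested (median 0.55), with 9 nominally higher (37.5% against 7.39% of all genes) and 0 lower, and 0 called by edgeR or DESeq2. The 9 became 2 without SUC3 replicate 3, 4 without any 1 control or SUC3 replicate 1, and 11 without SUC3 replicate 2. IFIT1, an antiviral protein that binds foreign RNA, was at 2.69, 3.38 and 2.87 CPM in control and 6.57, 4.54 and 11.4 CPM in SUC3, with no overlap. MX1, an antiviral GTPase, was at 1.72, 1.85 and 1.72 CPM in control and 5.88, 1.68 and 6.94 CPM in SUC3, where SUC3 replicate 2 lay just below the controls.

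In lipid and sterol synthesis 18 of 30 genes were higher and 12 lower, nominally 5 and 3 (16.7% and 10.0%, against 7.39% and 5.06% of all genes). The 5 became 3 without control replicate 2 or SUC3 replicate 1. LPIN2, a second lipin, was at 4.00, 3.05 and 4.64 CPM in control and 8.23, 7.79 and 7.24 CPM in SUC3 and was called by DESeq2 (adjusted p = 0.0449). DHCR7, the last enzyme of cholesterol synthesis, was at 5.24, 3.76 and 5.73 CPM in control and 2.08, 2.69 and 1.56 CPM in SUC3, lower without overlap. ACSL4, which activates long-chain fatty acids such as arachidonate, was at 108, 166 and 144 CPM in control and 74.6, 84.6 and 69.0 CPM in SUC3 and was called lower by DESeq2 (adjusted p = 0.0170).

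Of 29 cell cycle genes 16 were higher and 13 lower, nominally 5 and 0 (17.2% against 7.39% of all genes higher), and the 5 became 3 without control replicate 2, SUC3 replicate 1 or SUC3 replicate 3. MKI67, the proliferation marker Ki-67, was at 1.31, 0.327 and 0.975 CPM in control and 8.12, 2.13 and 4.43 CPM in SUC3 and was called by DESeq2 (adjusted p = 0.00730). Of 26 Wnt ligands, receptors and modulators 21 were higher and 5 lower (median 0.42), nominally 3 and 2 (11.5% and 7.69%, against 7.39% and 5.06%). The 3 became 6 without control replicate 1 and 2 without control replicate 2 or 3 or SUC3 replicate 3. WNT4, a Wnt ligand, was at 4.96, 9.58 and 5.22 CPM in control and 1.66, 2.75 and 2.33 CPM in SUC3, and DESeq2 called it lower (adjusted p = 0.0210). TRIM63, the atrophy-linked ubiquitin ligase MuRF1, was at 305, 453 and 455 CPM in control and 390.2, 2104 and 466 CPM in SUC3, with SUC3 replicate 2 far above the other libraries. ATF4 target CHAC1, which degrades glutathione, was at 0, 0.272 and 0 CPM in control and 2.56, 9.24 and 0.419 CPM in SUC3, and its SUC3 libraries were uneven in the same way.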
